A study of Mus musculus with 2 samples.

Results

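Imprinted genes are genes of which one parental copy is active and the other is silent. The copies are told apart by DNA methylation laid down in the egg or the sperm, which can lie on the active or on the silent copy, and the mark is kept through the early embryo by factors such as Zfp57, Trim28 and Dnmt1. Many of these genes control the growth of the fetus and the placenta, and they lie in clusters that share a control region. Some of those listed, such as Ascl2, Cd81, Nap1l4 and Dcn, are known to be imprinted mainly in the placenta. The expression of imprinted genes in mouse embryonic stem cells (mESCs) can vary between lines and cultures. A list of 38 imprinted gene names was looked up by identifier on the arrays of the series, and 37 of the 30774 identifiers were found. Gtl2 and Meg3 are the older and the current name of the same gene, so that the 37 identifiers stand for 36 genes. Snrpn was the name with no identifier of its own.

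One array held RNA from mESCs kept in LIF, which acts through Stat3, and the other RNA from mESCs given LIF together with CHIR99021 (CHIR), a GSK3 inhibitor that turns on Wnt/β-catenin signaling. The labels describe both cultures as B6 (C57BL/6) mESCs from the inner cell mass of the E3.5 embryo, grown in serum, without and with CHIR for 12 h. Sex, genotype and passage are not stated, and the paper's flow chart names the 46C line for the arrayed cells instead. There was 1 Illumina mouse beadchip per condition, 2 in all, so that no value below has a replicate, no difference was tested, and CHIR cannot be told apart from other ways in which the cultures differed. On bulk RNA, fewer cells with a transcript and less transcript per cell cannot be told apart either.

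A signal is the background-subtracted brightness of the beads for an identifier, in arbitrary units, and it was called detected at a detection p-value under 0.01 against the negative control beads. Signals of different genes come from different probes. They are grouped by brightness and summed over marker lists below, but are not read as relative expression of the genes. A gene was called higher or lower with CHIR from a fold change of 1.5. Of the 10 mESC markers looked up, 8 were detected on both arrays, whereas Sox2 and Tdgf1 were not. Sox2 had 441.2 in LIF and 400.2 with CHIR, with detection p-values of 0.0503 and 0.276. It was treated as an identifier of several probes, as Peg3 was below, so that its missed detection does not show absence. Tdgf1 had 26.6 and 14.6. None of the 8 detected markers passed the limit. Of all detected identifiers 4.11% were higher and 4.02% lower, and a count of 0 in 8 lies near those shares. The log2 fold changes of the 8 were above 0 for 4 and below 0 for 4. They ran from -0.49 for Utf1 to 0.58 for Klf4, which at 1.49-fold lay just short of the limit. Pou5f1 (Oct4) had 12346 in LIF and 11309 with CHIR, and Nanog had 1660 and 2429 (log2 fold change 0.55). None of 9 fibroblast markers was detected on either array. Among them Thy1, also treated as having several probes, had 222.3 in LIF and 225.3 with CHIR, with detection p-values of 0.354 and 0.302. The highest signal of the others was 24.7, for Col1a2 in LIF. Axin2, a feedback target of Wnt/β-catenin signaling, had a signal of 314.1 in LIF and 1178 with CHIR. The signal of Trh was 8479 and 19446, and that of Sp5 was 48.8 (not detected) and 809.5. The paper picked out Trh and Sp5 partly for their rise with CHIR on its microarrays, so that this rise is no independent check. Lef1, looked up with them, was not detected on either array (21.4 and 8.84).

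H19 carries the largest difference among the imprinted genes, and in RefSeq the miR-675 hairpin lies inside H19. Its mature arms are shown because a change in H19 RNA is also a change in their host transcript. They were not measured on these arrays. Capitals mark the seed (bases 2 to 8), and both arms are on the minus strand of GRCm38.p6, the 5p arm at chr7:142577112-142577133 and the 3p arm at chr7:142577078-142577099.
mmu-miR-675-5p: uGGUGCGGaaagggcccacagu
mmu-miR-675-3p: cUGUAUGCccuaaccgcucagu

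Peg3 had the second largest difference. The 250 bases before its RefSeq start are shown because the control region that is methylated on the maternal copy covers this promoter, and capitals mark the CG dinucleotides that such methylation uses. The window is chr7:6730420-6730669 of GRCm38.p6, minus strand. It also holds the start of Usp29, the neighbouring paternally expressed gene.
Peg3 promoter: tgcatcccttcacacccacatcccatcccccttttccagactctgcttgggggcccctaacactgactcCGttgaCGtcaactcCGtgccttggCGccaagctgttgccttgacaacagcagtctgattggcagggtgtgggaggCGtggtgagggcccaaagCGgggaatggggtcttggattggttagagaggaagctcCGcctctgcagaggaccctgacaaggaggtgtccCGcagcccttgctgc

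The window has 8 CG dinucleotides, and 43.0% of all 32851 promoter windows of this length have at least as many. The 6 letters CTTTGA, the core that Tcf and Lef factors read, were searched on both strands, alone and with no other motif. They are absent from the Peg3 window and present in 13.8% of all windows and in 6.67% of the 45 windows of 29 listed imprinted genes. The hexamer TGCCGC, which Zfp57 binds when methylated, is also absent from the Peg3 window. It is present in 8.68% of all windows and 15.6% of those 45. This hexamer holds a CG, and the median number of CG dinucleotides is 10 in those 45 windows and 6 in all windows. H19 and Cdkn1c had no window. A match is a description of these letters and no evidence of binding.

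Of the 37 identifiers, 15 (40.5%) were detected, all 15 of them on both arrays, against 9615 (31.2%) of all identifiers on at least 1 array. Most of the detected imprinted genes differed little between the conditions. With CHIR, 3 of the 15 were at least 1.5-fold lower, namely H19, Peg3 and Cdkn1c, and 0 were at least 1.5-fold higher. Among all 9615 detected identifiers, 4.02% were lower and 4.11% higher by this rule. The median log2 fold change was -0.06 over the 15 and 0.00 over all detected identifiers, with 7 of the 15 above 0 and 8 below.

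H19 is a long noncoding RNA transcribed from the maternal copy, and it is known to restrain growth. Its signal was 2676 in LIF and 1031 with CHIR, on both arrays above all negative controls (detection p-value of 0). This is a 2.60-fold lower signal with CHIR, a log2 fold change of -1.38. Igf2, the fetal growth factor gene beside it that is expressed from the paternal copy and shares its control region and enhancers, had 1232 in LIF and 1149 with CHIR, a log2 fold change of -0.10. Of this pair, H19 passed the limit and Igf2 did not.

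Peg3 encodes a zinc finger protein and is expressed from the paternal copy. Its signal was 2249 in LIF and 1090 with CHIR, a 2.06-fold lower signal (log2 fold change -1.05). The detection p-values of Peg3 (2.54e-08 and 0.000235) are not multiples of 1 over 936, the number taken for the negative controls, so that its signal was treated as the mean of several probes whose single values are not known here. The other genes of the Peg3 cluster were not detected. Usp29 had 7.47 in LIF and 4.36 with CHIR, and Zim1, a maternally expressed zinc finger gene, had 2.06 and -7.18.

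Cdkn1c encodes p57Kip2, an inhibitor of cyclin-dependent kinases, and is expressed from the maternal copy. Its signal was 4298 in LIF and 2733 with CHIR. The difference was 1.57-fold (log2 fold change -0.65), just past the limit of 1.5. No other detected gene of the list lay near the limit, since the next lowest was Gtl2 at -0.30.

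**Figure D1:**
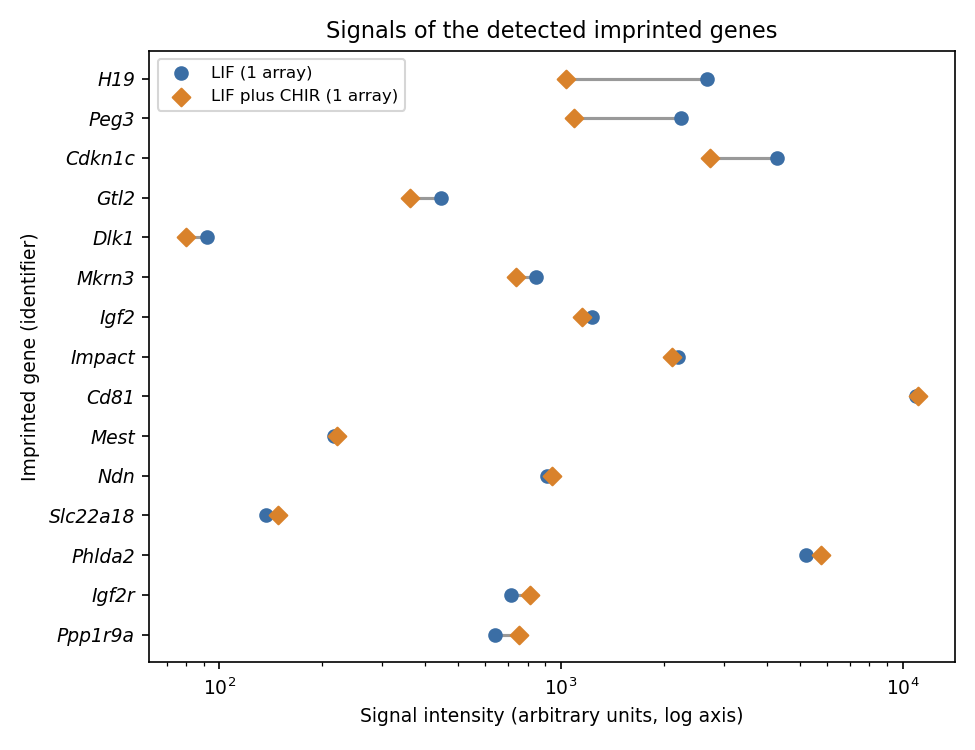
Signal intensity of the 15 detected imprinted genes on the LIF array (circles) and the LIF plus CHIR array (diamonds), on a log axis, with 1 array per condition and no error bars. The gap is widest for H19 (2676 and 1031), Peg3 (2249 and 1090) and Cdkn1c (4298 and 2733), and the symbols of most other genes nearly touch.

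These 3 genes were bright, and bright identifiers passed the limit less often than dim ones. At 1000 or more on the brighter array, a limit chosen with the values known, 33 of 3269 identifiers (1.01%) were at least 1.5-fold lower and 39 (1.19%) at least 1.5-fold higher. The list had 7 detected genes in this range, of which 3 were lower and 0 higher. Ordered from the lowest fold change upward among those 3269, H19 was in place 3, Peg3 in place 5 and Cdkn1c in place 25. The other genes in the range were Igf2, Impact, Cd81 and Phlda2, with log2 fold changes from -0.10 to 0.14. Of the 8 detected genes under 1000, none passed the limit in either direction, and their log2 fold changes ran from -0.30 to 0.23. In all, 3.67% of detected identifiers with a brighter signal from 100 to under 1000 were lower and 3.67% higher, and 10.3% and 10.4% of those under 100.

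**Figure D2:**
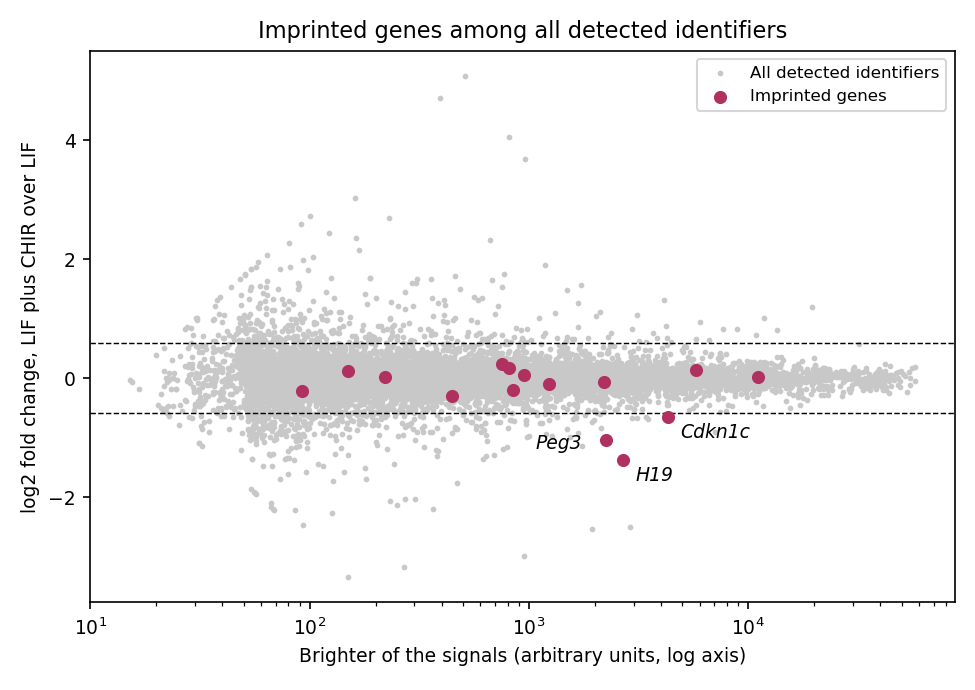
Log2 fold change with CHIR over LIF alone against the brighter of the signals (log axis) for all 9615 detected identifiers (grey) and the 15 detected imprinted genes (red), with dashed lines at 1.5-fold. H19, Peg3 and Cdkn1c lie below the lower line where the grey cloud is narrow, and the other 12 lie between the lines.

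H19 and Cdkn1c lie in the imprinted region of distal chromosome 7, in band 7qF5 of the array annotation. The region has separate control regions for the H19 and Igf2 pair and for the Kcnq1 cluster, which holds Cdkn1c. Of the 10 listed genes there 6 were detected, and 2 of these were lower. Cd81, a tetraspanin gene, had 10966 in LIF and 11109 with CHIR. Phlda2, which limits growth of the placenta, had 5233 and 5763, a log2 fold change of 0.14. Slc22a18, a transporter gene, had 137.3 and 148.8 (log2 fold change 0.12). In gene order Slc22a18 and then Phlda2 follow Cdkn1c, and both are maternally expressed as it is, but neither had a lower signal with CHIR. Kcnq1ot1, the noncoding RNA that silences the cluster on the paternal copy, was measured under the older symbol Tssc8 and had 403.8 and 400.5, a log2 fold change of -0.01.

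The remaining listed genes of distal chromosome 7 were not detected by p-value. Ascl2, a transcription factor gene of the trophoblast, had 90.7 in LIF and 52.3 with CHIR with detection p-values of 0.161 and 0.154. Tspan32, another tetraspanin gene, had 47.6 and 22.6 with p-values of 0.0171 and 0.0994. Both signals were lower with CHIR, but neither gene was detected at 0.01 on either array. Kcnq1, a potassium channel gene, had 15.5 and 10.5. Nap1l4, a histone chaperone gene, had 7182 and 6994 with p-values of 0.0235 and 0.0695.

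**Figure D3:**
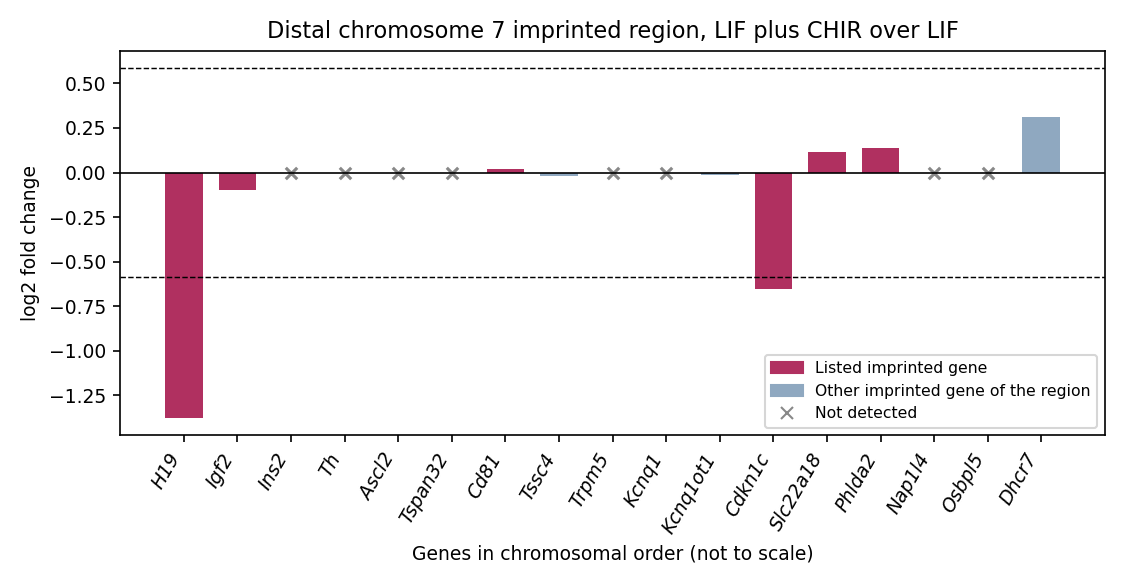
Log2 fold change with CHIR over LIF alone for imprinted genes of distal chromosome 7 in RefSeq gene order (not to scale), with listed genes in red, other imprinted genes in blue, crosses for genes not detected and dashed lines at 1.5-fold. H19 (-1.38) and Cdkn1c (-0.65) pass the lower line, and the other detected genes do not. Genes marked with a cross have no fold change here.

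Gtl2 and Dlk1 belong to a cluster of chromosome 12. Gtl2, the identifier under the older name of Meg3, is a maternally expressed long noncoding RNA whose loss of expression is known from many mESC and induced pluripotent lines. It had 444.6 in LIF and 362.4 with CHIR, a log2 fold change of -0.30. The identifier Meg3 of the same gene had 0.32 and 2.60 and was not detected, so that the entries for this gene disagree on whether it was above background. Dlk1, the paternally expressed transmembrane protein gene of the cluster, had 92.1 and 79.9, a log2 fold change of -0.21.

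In the Prader-Willi and Angelman region on chromosome 7, 2 of the 5 listed identifiers were detected, both paternally expressed. Mkrn3, of the makorin family of ubiquitin ligases, had 843.8 in LIF and 736.9 with CHIR (log2 fold change -0.20). Ndn, a MAGE family gene, had 909.5 and 944.0 (log2 fold change 0.05). Snurf, whose transcript also encodes Snrpn and for which the array annotation gives Snrpn as a synonym, had 7629 and 6061, a log2 fold change of -0.33. Magel2, another MAGE family gene, had 23.2 and 10.2 and was not detected. Ube3a, the ubiquitin ligase gene of Angelman syndrome, had 23.1 and 7.79 with p-values of 0.337 and 0.802. Peg12 (Frat3), of a family whose proteins bind GSK3, the kinase that CHIR inhibits, had -11.1 and -10.1 and was not detected.

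The cluster of proximal chromosome 6 gave 1 detected gene of 5. Ppp1r9a, which encodes the actin-binding protein neurabin, had 642.9 in LIF and 755.7 with CHIR. Its log2 fold change of 0.23 was the highest of the list. Peg10, a gene derived from a retrotransposon and needed in the placenta, had 24.1 and 27.3 with p-values of 0.0224 and 0.0148, just short of detection. Sgce, Calcr and Asb4 had signals below 0 on both arrays.

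Among the listed genes outside these clusters, 3 were detected and all stayed within the limit. Igf2r, the receptor that clears the Igf2 protein, had 714.5 in LIF and 809.6 with CHIR (log2 fold change 0.18). Impact, which encodes an inhibitor of the kinase Gcn2, had 2195 and 2109 (log2 fold change -0.06). Mest, which encodes a protein of the hydrolase fold, had 216.3 and 220.3 (log2 fold change 0.03). Grb10, an adaptor that dampens insulin signaling, had 1604 and 1844 but p-values of 0.0148 and 0.0153, and it was therefore not detected at 0.01.

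Of the 22 undetected identifiers, 20 had signals under 100 on both arrays, and 8 of these were below 0 on both. The exceptions were Grb10 and Nap1l4, with signals of 1000 or more on both arrays. Their p-values are combined over several probes by the same reasoning as for Peg3. Gnas, the gene of the stimulatory G protein, had 69.9 in LIF and 77.0 with CHIR with p-values of 0.0985 and 0.121. Nnat had 28.2 and 22.5, and Zrsr1 had 6.55 and 7.24. Dcn, Plagl1, Rasgrf1 and Nap1l5 were below 0 on both arrays.

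By the parental copy that is usually active, 8 maternally and 7 paternally expressed identifiers were detected. Among the maternal ones 2 were lower (H19 and Cdkn1c), with a median log2 fold change of 0.07. Among the paternal ones 1 was lower (Peg3), with a median of -0.10. Of all detected identifiers 4.02% were lower. Lower genes were present in both classes, but they are too few to compare the classes. The arrays do not tell the parental copies apart.

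The factors that keep or set imprints were looked up as fixed lists. Of 13 maintenance factors 9 were detected, with 0 higher and 0 lower, and a median log2 fold change of -0.04. Over all detected identifiers 4.11% were higher and 4.02% lower, and counts of 0 in lists this short lie near those shares. Zfp57, which binds the methylated control regions, had 769.0 in LIF and 709.0 with CHIR. Trim28, its partner, had 41149 and 36276. Dppa3 (Stella), which protects methylation in the early embryo, had 4216 and 4105, and Dnmt1, the maintenance methyltransferase, had 1773 and 1762. The log2 fold changes of these 4 genes lay between -0.18 and -0.01.

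Of 10 establishment and erasure factors 5 were detected, also with 0 higher and 0 lower, and the median was -0.11. Dnmt3b, a methyltransferase that sets new methylation, had 15438 in LIF and 10870 with CHIR, a log2 fold change of -0.51 that stayed within the limit. Dnmt3l, its cofactor, had 41020 and 38016 (log2 fold change -0.11). Dnmt3a was not detected, with -14.9 and -10.2. A further list of 45 genes reported as imprinted in at least some tissues had 41 on the array and 14 detected, with 0 higher and 0 lower and a median of -0.02. Its log2 fold changes ran from -0.49 for Atp10a to 0.31 for Dhcr7.

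**Figure D4:**
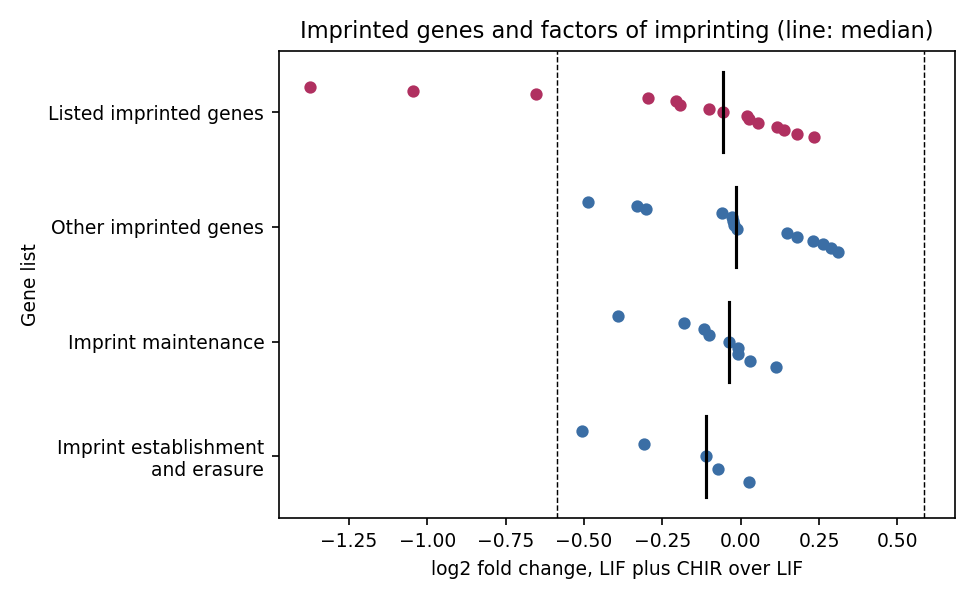
Log2 fold changes with CHIR over LIF alone for detected genes in 4 lists, with 1 point per gene, a line at each median and dashed lines at 1.5-fold. H19, Peg3 and Cdkn1c of the listed imprinted genes pass the lower line, and no gene of the other 3 lists passes either line. Of all detected identifiers, 4.02% pass the lower and 4.11% the upper line.

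Markers of other cell types were set beside these values. The summed signal of 10 trophoblast markers was 3754 in LIF and 3944 with CHIR, with 4 and 5 of them detected. Most of both sums was Tfap2c, a transcription factor gene, with 3175 and 3329, and the keratin genes Krt8, Krt18 and Krt7 were slightly lower with CHIR, with log2 fold changes from -0.27 to -0.07. Cdx2 was the marker detected with CHIR alone, at 23.6 in LIF and 93.5 with CHIR. Elf5, Eomes, Gata3, Hand1 and Tpbpa were not detected on either array. Of these, Eomes (-3.90 in LIF and 27.2 with CHIR) and Gata3 (1.35 and 5.47) had higher signals with CHIR, and Elf5, Hand1 and Tpbpa lower ones. The summed signal of 9 primitive endoderm markers was 3714 and 3847, with 3 detected on each array. These were Lama1 (1538 in LIF and 1879 with CHIR), Sparc (2055 and 1861) and Sox7 (45.9 and 59.0). Gata4, Gata6, Sox17, Pdgfra, Dab2 and Foxa2 were not detected. The sums of both lists include the undetected markers. Of the genes looked up as targets of the treatment, 2 are also genes of the primitive streak and early mesoderm. T (Brachyury) had 8.05 (not detected) in LIF and 394.5 with CHIR, and Cdx1 had 75.2 and 963.2, a log2 fold change of 3.68. The part of such cells in the lower signals of H19, Peg3 and Cdkn1c was not tested.

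**Figure D5:**
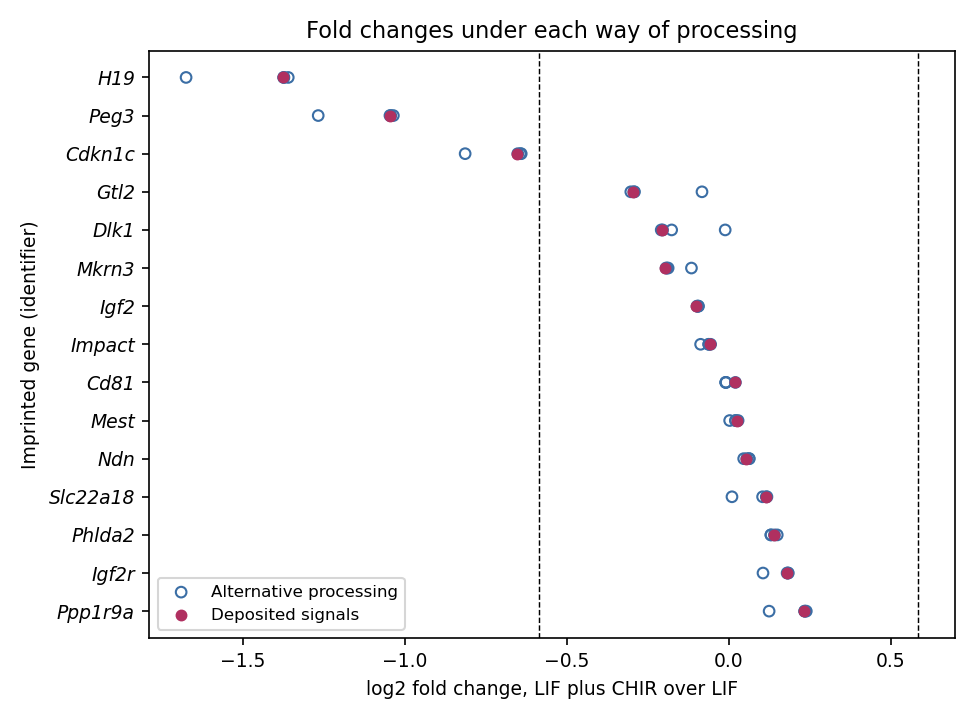
Log2 fold change of the 15 detected imprinted genes from the deposited signals (filled) and under the 4 alternative ways of processing that could change them (open), with dashed lines at 1.5-fold. H19 (-1.68 to -1.36), Peg3 (-1.27 to -1.04) and Cdkn1c (-0.81 to -0.64) stay below the lower line, and the other genes stay between the lines.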

How the data were processed

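RNA of 1 culture per condition was labelled with biotin and hybridized to Illumina mouse beadchips. The authors deposited a signal intensity per gene identifier and array, on a linear scale and background-subtracted, with a nearly equal distribution on both arrays. The normalization method and the software are not given in the sources used here. Each signal was deposited with a detection p-value. The shorter deposited table (11702 identifiers) was also read, and 0 of its values differed from the longer one. The imprinted genes and the lists were chosen with earlier results of these data known.

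Fold changes were ratios of the deposited signals wherever the detection p-value was under 0.01 on 1 array or both. By this rule 9021 identifiers were detected in LIF and 9174 with CHIR. Signals under the lowest detected signal of the array (15.1 and 14.8) were raised to it, which touched none of the 15 detected imprinted genes. Named genes were all listed imprinted genes and, of the other lists, those past 1.5-fold together with fixed factors. Others are named for their place beside a listed gene or after their values were seen. Identifiers whose p-values were multiples of 1 over 936 (within 0.001 of a whole number) were treated as having 1 probe. Of 112 list entries, 95 were matched by identifier, 8 by Entrez gene number and 5 by older symbol through RefSeq (GRCm38.p6), and 4 were not matched. Promoter and miRNA sequences are from RefSeq, and 29 of the listed genes had a promoter window. The number of arrays limits the precision. Python 3.11.15, pandas 2.3.3, numpy 2.4.6, R 4.3.3 with limma 3.58.1 and matplotlib 3.10.9 were used. The calculation was run on a copy of the LIF signals with known changes set in bright identifiers. That copy held no added noise, so that this checks the arithmetic only.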

Additional observations from a re-analysis of the deposited data

How the results depend on the processing

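No paired analysis was possible because only 1 array was made for each condition. Alternatives were quantile normalization, scaling to equal medians, normexp correction (offset 16, followed by quantile normalization) with the background estimated from all identifiers or from those with 1 probe, the shorter table, a limit of 2-fold, no or a higher minimum signal, detection required on both arrays, and a detection p-value under 0.05. Detection by signal was added after the data were seen. H19 and Peg3 were lower under each of them, and Cdkn1c under each except the limit of 2-fold, which left 2 genes lower. A detection p-value under 0.05 added Tspan32 (log2 fold change -1.08), for 4 lower of 20 detected listed genes. Detection by signal added Ascl2 (-0.79), for 4 of 19. Of all identifiers, 5.85% and 2.88% were lower under these settings. The share was 0.88% at the limit of 2-fold and 0.51% under normexp fitted on all identifiers. Under the other settings it ran from 2.65% to 4.08%, so that equal counts do not mean the same under each. No listed gene was higher under any of them. For the 15 detected genes only quantile normalization, scaling and both normexp corrections changed the fold changes, and under the other 6 ways of computing them all values were equal to those reported. Normexp fitted on all identifiers moved H19 to -1.68, Peg3 to -1.27 and Cdkn1c to -0.81. It moved the dimmer Gtl2 to -0.08 and Dlk1 to -0.01. The standard deviation of the background in this fit was 588 in LIF and 586 with CHIR. Fitted on identifiers with 1 probe it was 15.4 and 15.3, so that the fit on all identifiers is the less reliable. Cd81, at 0.02, was the detected gene whose sign turned (to -0.01, under quantile normalization and both normexp corrections). Low signals passed the limit more often, since 10.3% of detected identifiers with a brighter signal under 100 were called lower and 10.4% higher. The median over the detected listed genes stayed between -0.06 and -0.01, with -0.01 under normexp fitted on all identifiers.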
